A study of Homo sapiens with 34 samples.

Results

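MB157 is a triple-negative breast cancer (TNBC) cell line in which growth is driven by an activated NOTCH1 gene. The present comparison set the RBPJ binding sites of MB157 cells after 72 h of SOX2 induction (MB157 iSOX2) against those of MB157R cells carrying an empty vector (MB157R iEV). MB157R are MB157 cells made resistant to γ-secretase inhibition by 25 weeks of culture with 1 µM of the inhibitor LY3039478. The question was whether a short pulse of SOX2 in parental cells places RBPJ where it sits in cells that became resistant over months. All groups carried a lentiviral doxycycline-inducible vector that adds a 3xHA tag, and per the labels induction was with 1 µg/ml doxycycline for 72 h. The vector held SOX2 in iSOX2, a NOTCH1 without its extracellular domain in MB157R iN1-ICD, and no insert in the iEV groups of MB157 and MB157R. Whether the inhibitor was present during induction is not given in the sources used here, and nothing in the labels says whether replicate libraries came from separate cultures.

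Each RBPJ group had 3 ChIP libraries, which the authors pooled before calling peaks, so each condition was represented by 1 peak list. A site was the summit of a peak on chromosomes 1 to 22 and X. MB157 iSOX2 gave 34521 sites and MB157R iEV gave 46601, together 81122 of the 290228 sites in the 8 lists of the series. A site was called shared when the nearest summit of the other list lay under 500 bp away. With pooled lists there was no spread between replicates, and no test compared the conditions themselves. Every interval below is a 95% interval for counting error over sites, and every odds ratio and p-value describes sites within these lists.

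RBPJ is the DNA-binding partner of the Notch receptors. When a receptor is cleaved by γ-secretase, its intracellular domain (N1-ICD for NOTCH1) enters the nucleus, joins RBPJ and the coactivator Mastermind, and switches on target genes such as the HES and HEY repressors. Without it RBPJ can stay on DNA with corepressors. SOX2 is a stem cell transcription factor of the high-mobility-group family that can bind closed chromatin. AP-1, the dimer of FOS and JUN proteins, is a common occupant of enhancers in basal and mesenchymal-like breast cancer cells.

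The following windows of 201 bases, each centred on an RBPJ summit, show the kinds of site on which the comparison turned. They were taken from the plus strand of hg38. Capitals mark the RBPJ motif (GTGGGAA or GTGAGAA on either strand) in the first 5 windows. The RPL39 promoter (chrX:119791666-119791866, 136 bp upstream of the start site) represents sites bound in both lists. A site 41.8 kb upstream of MYEOV (chr11:69252259-69252459, intergenic) was present in iSOX2 and absent from MB157R. A site 11.9 kb downstream of the UPK3BL2 start (chr7:102531697-102531897, intergenic) was present in MB157R and absent from iSOX2. A site in intron 2 of MKNK2 (chr19:2047536-2047736) was present in both but not in MB157 iEV. A site 9.36 kb from the NRARP start, upstream of it and within intron 19 of EXD3 (chr9:137311530-137311730), was present in every RBPJ list.
RPL39: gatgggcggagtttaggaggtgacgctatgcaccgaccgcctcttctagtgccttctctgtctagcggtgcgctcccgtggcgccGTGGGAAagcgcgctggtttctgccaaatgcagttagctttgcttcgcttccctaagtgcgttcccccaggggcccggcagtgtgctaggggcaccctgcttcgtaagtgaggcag
MYEOV: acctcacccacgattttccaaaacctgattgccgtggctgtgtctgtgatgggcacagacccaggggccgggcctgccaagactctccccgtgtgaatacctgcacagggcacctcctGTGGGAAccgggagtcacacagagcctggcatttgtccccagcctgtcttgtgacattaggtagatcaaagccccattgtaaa
UPK3BL2: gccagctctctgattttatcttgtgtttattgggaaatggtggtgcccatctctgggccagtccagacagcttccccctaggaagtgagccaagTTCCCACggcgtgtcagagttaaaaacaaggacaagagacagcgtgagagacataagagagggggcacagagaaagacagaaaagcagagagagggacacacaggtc
MKNK2: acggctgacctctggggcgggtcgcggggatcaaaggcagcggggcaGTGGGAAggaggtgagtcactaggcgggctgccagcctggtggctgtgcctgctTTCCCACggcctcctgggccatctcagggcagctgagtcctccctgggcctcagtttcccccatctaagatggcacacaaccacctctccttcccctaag
NRARP: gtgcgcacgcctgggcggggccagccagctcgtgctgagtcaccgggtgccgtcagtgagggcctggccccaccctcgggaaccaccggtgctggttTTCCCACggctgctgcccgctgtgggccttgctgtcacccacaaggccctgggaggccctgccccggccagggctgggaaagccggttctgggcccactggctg

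In the next pair, capitals mark the AP-1 motif (TGACTCA on either strand). Both sites were strong in MB157R and absent from iSOX2, and they were chosen after their values were seen to illustrate the motif with the largest odds ratio between the single-list classes. One lay 27.8 kb upstream of ARHGEF4 (chr2:130809045-130809245) and the other 21.2 kb upstream of AKIRIN2 (chr6:87723381-87723581), where the motif sat at the summit itself. Both were intergenic. The capitals do not mark every motif in a window. The ARHGEF4 window also holds an RBPJ motif, left unmarked. The MKNK2 and NRARP windows, from sites present in both lists, also hold an unmarked AP-1 motif.
ARHGEF4: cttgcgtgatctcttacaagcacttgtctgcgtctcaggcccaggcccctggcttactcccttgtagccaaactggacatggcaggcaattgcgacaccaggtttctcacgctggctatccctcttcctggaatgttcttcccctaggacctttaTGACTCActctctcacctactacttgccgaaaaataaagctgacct
AKIRIN2: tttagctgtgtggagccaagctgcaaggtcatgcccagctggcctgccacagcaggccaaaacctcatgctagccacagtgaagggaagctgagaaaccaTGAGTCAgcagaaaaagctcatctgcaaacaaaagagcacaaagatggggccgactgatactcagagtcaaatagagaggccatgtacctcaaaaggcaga

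A minority of the resistant RBPJ sites was present in SOX2-induced parental cells. Of the 46601 MB157R sites, 15929 (34.2%, 95% interval 33.8 to 34.6) had an iSOX2 summit under 500 bp away. In the other direction, 15968 of 34521 iSOX2 sites (46.3%, 45.7 to 46.8) had an MB157R summit. For scale, 26.2% of the MB157R sites were called in MB157 iEV, the parental cells without SOX2, and 56.3% in MB157R iN1-ICD. Induction was thus accompanied by 7.99 percentage points more of the resistant sites than the empty vector, while the iSOX2 list was also longer than the iEV list (34521 against 25243 sites). When each list was trimmed to its 25243 strongest sites, the shares were 40.9% in iSOX2, 37.2% in iEV and 64.1% in iN1-ICD, and the difference between iSOX2 and iEV was 3.69 points (3.18 to 4.21).

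The iSOX2 list was closer to its own parent than to the resistant cells. At equal length 60.8% of the iSOX2 sites were called in MB157 iEV and 41.0% in MB157R. The corresponding share of iEV sites called in MB157R was 37.6%.

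Shared summits mostly coincided. The median distance was 83 bp over the shared MB157R sites, and 8782 of 46601 lay under 100 bp apart. Just inside the limit, 829 MB157R sites had their partner at 400 to 499 bp, and just outside it 645 had the nearest summit at 500 to 599 bp. Their median folds were 5.51 and 5.31. Unshared sites were usually far from any peak of the other list. The median distance was 17.1 kb for MB157R-only and 9.42 kb for iSOX2-only sites, although 6.11% and 12.6% of them lay inside a region overlapping a peak of the other list.

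Strong sites and promoters were shared more often than weak and distal ones. Fold enrichment is the ChIP signal at the summit over the local background as the peak caller gave it. Sites were divided into 5 bins of equal size by fold. From the lowest to the highest bin, the share of MB157R sites called in iSOX2 went from 15.2% to 58.3%, in iEV from 10.0% to 51.5% and in iN1-ICD from 26.3% to 91.4%. In every bin the iSOX2 share lay above the iEV share and below the iN1-ICD share. For iSOX2 sites the order changed with strength. In the lowest bin 29.6% were called in MB157R and 24.8% in iEV, whereas in the highest bin 65.1% were called in MB157R and 86.5% in iEV. Thus the strongest sites of SOX2-induced cells were largely those of the parent, as the plot of shares by fold shows.

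**Figure D1:**
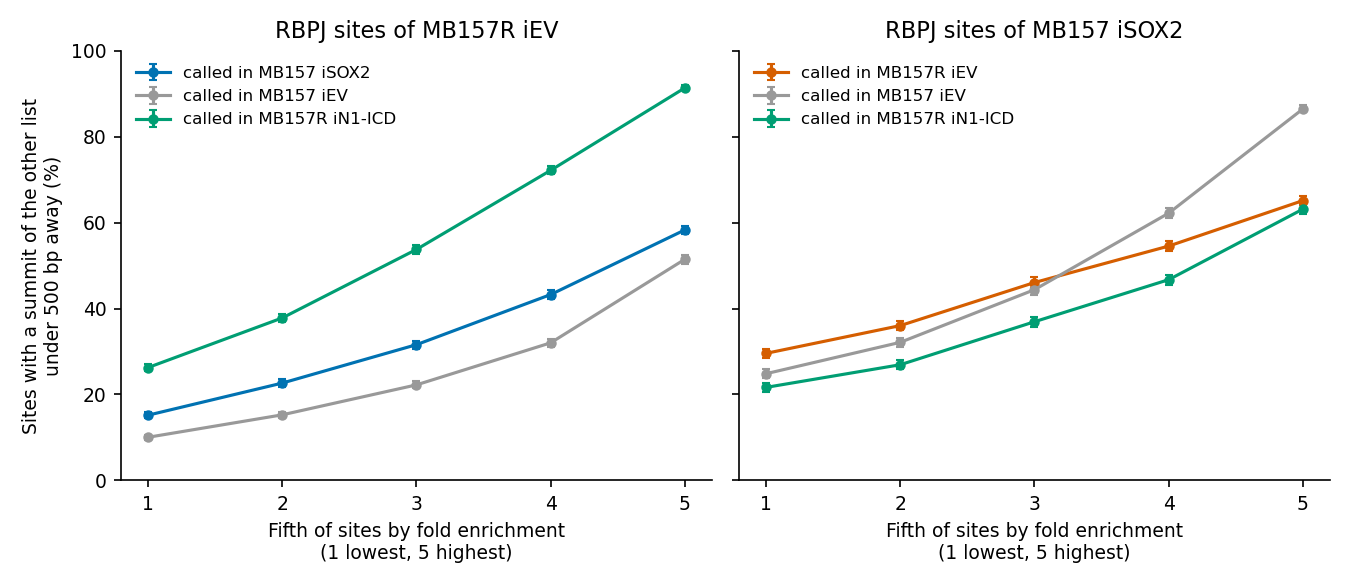
The plot shows, for RBPJ sites of MB157R iEV (left) and MB157 iSOX2 (right) in 5 bins of fold enrichment (x axis), the percent with a summit of another RBPJ list under 500 bp away (y axis). Points are shares over pooled lists and bars are 95% intervals for counting error. Of the strongest MB157R sites 91.4% were called in iN1-ICD and 58.3% in iSOX2, and of the strongest iSOX2 sites 86.5% were called in MB157 iEV and 65.1% in MB157R.

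Promoters, taken as summits within 1 kb of a protein-coding start site, made up 31.3% of the MB157R list and 37.8% of the iSOX2 list. Of the MB157R promoter sites 61.8% were called in iSOX2, against 21.6% of the distal sites. Of the iSOX2 sites 69.6% at promoters and 32.1% at distal positions were called in MB157R. The promoter share was 56.7% of shared, 18.2% of MB157R-only and 21.3% of iSOX2-only sites (odds ratio of MB157R-only against shared 0.170, 0.163 to 0.178; iSOX2-only against shared 0.206, 0.197 to 0.216; Fisher's exact test, both adjusted p at 1e-300, the smallest value written). Over the 15929 shared MB157R sites, the folds of the lists had a Spearman rho of 0.461, given as a description since the sites share libraries and background, with 0.510 at promoters and 0.404 at distal sites.

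The MB157R sites divided by their presence in the parental lists as follows. Both parental lists held 10071 (21.6%), iEV alone 2134 (4.58%), iSOX2 alone 5858 (12.6%) and neither 28538 (61.2%). The comparisons of iSOX2 and of MB157R with the parent share the iEV list, so these counts are given side by side without a test. Sites that neither parental list held were mostly distal, with 16.0% at promoters, and 51.1% had a summit of the SOX2 expressed by MB157R itself nearby. Of sites held by iSOX2 alone 54.4% were at promoters.

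RBPJ sites present in iSOX2 and not in iEV were called in MB157R at 33.8% (5830 of 17262), and iEV sites no longer called in iSOX2 at 27.7% (2203 of 7946). The odds ratio was 1.33. It is given as a description, because it sets pooled lists of unlike length (34521 iSOX2 and 25243 iEV sites) against each other and does not measure an effect of SOX2. The odds ratio was 1.04 (0.983 to 1.10) when sites had to lie under 100 bp apart. Sites kept by iSOX2 from iEV were called in MB157R at 58.7% (58.0 to 59.5).

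The share of RBPJ sites with SOX2 of the resistant cells or induced HA-tagged SOX2 nearby differed between the site classes. SOX2 antibody peaks in MB157R iEV numbered 37963 and HA peaks in iSOX2 108203, and 34.7% of the former had an HA-SOX2 summit under 500 bp away. The antibodies differed, and the HA list was the longer. As a check of the labels, the SOX motif (ACAAAG or ACAATG) was found within 100 bp of 43.1% of SOX2 and 60.4% of HA-SOX2 summits, against 23.8% and 25.5% of windows 1 kb away. HA peaks in cells with the empty vector, from 1 library, numbered 77.

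SOX2 was mapped in MB157R and HA-SOX2 in iSOX2, the same cells whose RBPJ calls make the classes. The direction of the contrasts below was thus partly set in advance, and their p-values do not measure a separate effect. A SOX2 summit lay near 50.0% of MB157R-only sites, 39.3% of shared sites and 7.02% of iSOX2-only sites. For HA-SOX2 the shares were 16.5% of MB157R-only, 49.2% of shared and 45.2% of iSOX2-only sites. MB157R-only sites therefore had SOX2 more often than shared sites (odds ratio 1.55, 1.49 to 1.61, adjusted p = 1.76e-107) and HA-SOX2 less often (0.204, 0.195 to 0.213, adjusted p at the floor of 1e-300; Fisher's exact test over 57 comparisons). For iSOX2-only against shared sites the HA-SOX2 odds ratio of 0.848 did not keep its direction. It was 1.04 over bins of fold and 1.48 (1.40 to 1.57) for stricter peaks (−log10 q of 5 or more).

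Few of the resistant sites that had SOX2 without HA-SOX2 were called in the parental lists. Among distal MB157R sites, 11701 had SOX2 without HA-SOX2. Of these 5.92% (5.50 to 6.37) were called in iEV and 6.97% (6.51 to 7.44) in iSOX2, whereas 62.9% were called in iN1-ICD. Distal sites with both SOX2 and HA-SOX2 numbered 5622, and 34.0% were called in iEV and 45.5% in iSOX2. Those with HA-SOX2 alone numbered 1989, at 46.0% and 56.6%. The distal sites with neither numbered 12684, at 14.5% and 19.0%. The distal sites with HA-SOX2 were thus called more often in iEV as well. Of the distal sites held by exactly one parental list, that list was iSOX2 for 78.3% (75.8 to 80.7) with both SOX2 and HA-SOX2, 71.3% (67.0 to 75.2) with HA-SOX2 alone, 60.0% (56.0 to 64.0) with SOX2 alone and 68.1% (65.7 to 70.4) with neither.

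**Figure D2:**
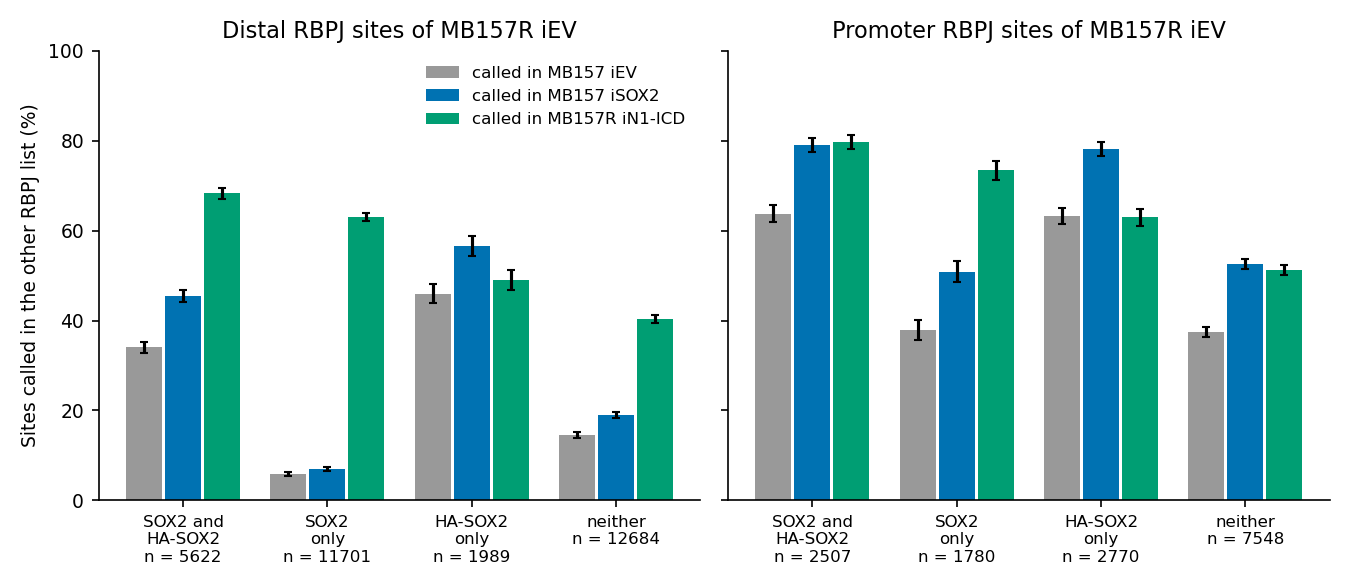
The bars give the percent of MB157R iEV RBPJ sites called in MB157 iEV, MB157 iSOX2 and MB157R iN1-ICD (y axis), split by whether a SOX2 summit of MB157R and an HA-SOX2 summit of iSOX2 lay under 500 bp away (x axis, with the number of sites). Distal sites are on the left, promoter sites on the right, and error bars are 95% intervals for counting error. The 11701 distal sites with SOX2 and no HA-SOX2 were called at 5.92% in iEV and 6.97% in iSOX2.

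At promoters the difference between iSOX2 and iEV was much alike with and without SOX2. It was 15.4 points with both, 13.0 with SOX2 alone, 14.9 with HA-SOX2 alone and 15.2 with neither. Over MB157R sites held by exactly one parental list, that list was iSOX2 more often where HA-SOX2 lay nearby (odds ratio 1.32, 1.19 to 1.46, p = 1.6e-07, Fisher's exact test). The ratio was 1.00 (0.885 to 1.13) for summits under 100 bp apart and 1.06 (0.927 to 1.22) for the stricter peaks. As HA-SOX2 was mapped in the iSOX2 cells themselves, this direction was partly set in advance and the p-value does not measure a separate effect. For the SOX2 of MB157R the odds ratio was 1.05 (0.946 to 1.16, p = 0.371, Fisher's exact test) and its direction changed with the settings.

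Of the motifs searched, AP-1 had the largest odds ratio between the single-list classes. TGACTCA occurred within 100 bp of 24.0% of MB157R-only summits, 8.07% of shared summits and 3.16% of iSOX2-only summits. It occurred in 2.97% of windows 1 kb away and 2.50% of promoter windows of the same length. The odds ratio of MB157R-only against iSOX2-only sites was 9.68 (8.88 to 10.5) and against shared sites 3.60 (3.38 to 3.83), both with an adjusted p at the floor of 1e-300 (Fisher's exact test). Over bins of fold it was 9.11 (8.35 to 9.95) against iSOX2-only sites. The letters in reverse order (ACTCAGT), a control of like composition, occurred at 3.67% of MB157R-only and 2.22% of iSOX2-only sites (odds ratio 1.68, 1.50 to 1.89, adjusted p = 6.91e-20, Fisher's exact test).

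The share with the AP-1 motif was higher at stronger MB157R-only sites, from 17.7% in the lowest bin of fold to 32.1% in the highest, while it stayed between 2.74% and 3.47% at iSOX2-only sites. It was found at 31.9% (31.2 to 32.7) of MB157R-only sites with SOX2 nearby and 16.1% (15.5 to 16.7) of those without, and both lay above the 3.57% and 2.99% of their own flanks. At distal sites the share was 27.8% of MB157R-only, 15.1% of shared and 3.59% of iSOX2-only sites. At promoters it was 6.79%, 2.68% and 1.57%. The contrast of MB157R-only with shared sites, which were more often at promoters, was thus smaller among distal sites than over all sites. The SOX2 summits of MB157R carried the AP-1 motif at 31.0%, against 3.39% of their flanks, and the HA-SOX2 summits of iSOX2 at 5.54% against 3.10%. RBPJ summits of MB157 iEV carried it at 4.74%, against 2.91% of their flanks, and those of MB157R iN1-ICD at 17.0% against 3.23%. In these lists it was thus frequent at RBPJ and SOX2 sites of the resistant cells and closer to its flanks at those of the parental cells.

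The RBPJ motif was present at 14.9% of MB157R-only, 19.2% of shared and 19.6% of iSOX2-only sites, against 7.21% of windows 1 kb away. MB157R-only sites had it less often than iSOX2-only sites (odds ratio 0.718, 0.684 to 0.753, adjusted p = 8.86e-41, Fisher's exact test). Their difference from shared sites (0.735) was not present over bins of fold (0.973, 0.922 to 1.03). In the highest bin it reached 27.0% of MB157R-only, 30.1% of shared and 36.0% of iSOX2-only sites. Most sites of every class held no exact match in this window.

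The SOX motif occurred at 22.1% of MB157R-only, 15.3% of shared and 24.2% of iSOX2-only sites, against 21.3%, 19.2% and 20.1% of their own flanks. It was more frequent where SOX2 peaks lay nearby. With HA-SOX2 nearby 36.1% (35.1 to 37.1) of iSOX2-only sites held it, and without 14.4% (13.7 to 15.1), against flanks of 21.3% and 19.2%. With SOX2 nearby 29.6% of MB157R-only sites held it, and without 14.6%, against flanks of 23.2% and 19.5%. Sites without these peaks thus lay below their flanks. Letters bound by promoter factors were more frequent at shared sites, near their shares in promoter windows. GGGCGG of the SP and KLF factors was found at 39.7% of shared, 16.1% of MB157R-only and 16.2% of iSOX2-only sites and 39.9% of promoter windows. CCGGAAG of the ETS factors was found at 7.58%, 2.91% and 1.72% of sites and 8.45% of promoter windows. GCGCATGCG of NRF1 was rare, at 1.66% of shared and 0.290% of MB157R-only sites, but its odds ratio between these classes (0.172) was farther from 1 than that of AP-1. RUNX letters (TGTGGTT) were found at 7.37% of MB157R-only, 3.60% of shared and 4.63% of iSOX2-only sites.

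**Figure D3:**
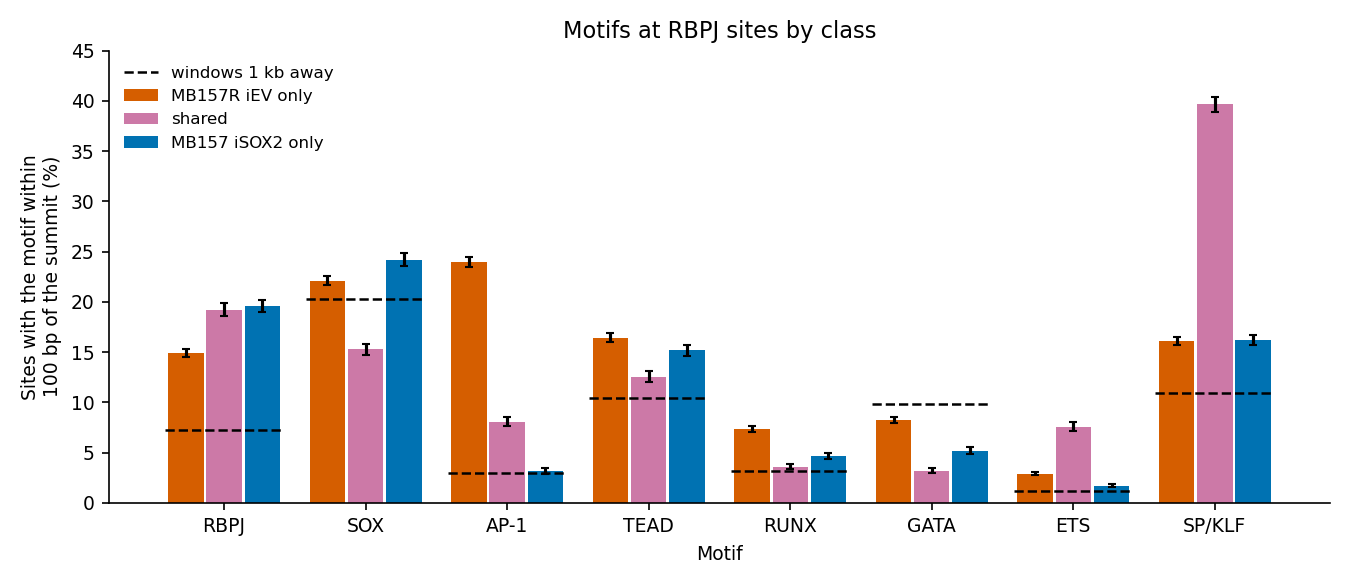
The bars give the percent of RBPJ sites with a motif within 100 bp of the summit (y axis) for 8 motifs (x axis) in MB157R iEV-only, shared (MB157R side) and MB157 iSOX2-only sites, with 95% intervals for counting error. Dashed lines are the shares in windows 1 kb from the summits. AP-1 stood at 24.0% of MB157R-only sites and 3.16% of iSOX2-only sites, next to a flank share of 2.97%.

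The strongest sites of each class showed the pattern in single loci. The 10 strongest shared sites lay mostly at promoters (8 of 10) and had folds of 50.7 to 133 in MB157R and 53.9 to 131 in iSOX2. The GTF2H4 promoter, which serves a gene for part of the repair and transcription complex TFIIH, had a fold of 133 in MB157R, 131 in iSOX2, 101 in iEV and 61.9 in iN1-ICD. The promoter of RBPJ itself had a fold of 93.6 in MB157R, 62.5 in iSOX2, 33.3 in iEV and 47.2 in iN1-ICD, so that it was lowest in parental cells with the empty vector. The site upstream of NRARP, which encodes a feedback inhibitor of Notch signaling, had a fold of 111 in MB157R, 53.9 in iSOX2, 70.1 in iEV and 99.2 in iN1-ICD. The promoter of CDKN2B, a cell cycle inhibitor, had folds of 54.6, 58.5, 37.7 and 26.4 in the same order. SPRY4, an inhibitor of receptor tyrosine kinase signaling, had 50.7, 61.5, 52.0 and 24.8.

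Over all 18553 iSOX2-only sites 38.4% were called in MB157 iEV, so most were not, and in the highest bin of fold 79.8% were. All of the 10 strongest were called there, and 8 of them had the higher fold in iEV. HA-SOX2 lay near 9 of the 10 and SOX2 of MB157R near none. The site upstream of MYEOV had a fold of 38.5 in iSOX2, 59.5 in iEV and 4.99 in iN1-ICD, with an HA-SOX2 fold of 28.4. A site in intron 7 of TMPRSS2, a membrane serine protease, had 29.2 in iSOX2 and 43.5 in iEV and no summit in either resistant list. A site 38.5 kb upstream of POU5F1B had 30.0 in iSOX2, 47.9 in iEV and 5.23 in iN1-ICD, beside an HA-SOX2 fold of 50.5. A site 35.9 kb upstream of SEMA3E, a semaphorin guidance cue, had 26.5, 42.6 and 5.49. All 10 were thus in the list of the parent without induced SOX2, unlike most of their class.

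Of all MB157R-only sites 6.96% were called in iEV and 48.5% in iN1-ICD, and in the highest bin of fold 90.2% were called in iN1-ICD and 72.4% had SOX2 nearby. Of the 10 strongest none was called in iEV, all were called in iN1-ICD, 9 had a SOX2 summit of MB157R nearby and none had HA-SOX2. The highest, near UPK3BL2, had a fold of 110 in MB157R and 82.0 in iN1-ICD. UPK3BL2 has a near-identical neighbouring copy, so reads there may be split between copies and its value is uncertain. An intronic site of PXDN, a matrix peroxidase, had 70.3 in MB157R and 35.3 in iN1-ICD. The promoter of ALDH1A3, an aldehyde dehydrogenase used as a breast cancer stem cell marker, had 46.4 and 34.2, with a SOX2 fold of 4.22. The site upstream of ARHGEF4, a guanine nucleotide exchange factor, had 39.4 and 39.6, with a SOX2 fold of 28.4. A site 18.4 kb upstream of DUSP6, a phosphatase of ERK, had 31.5 and 23.3, with a SOX2 fold of 14.5.

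**Figure D4:**
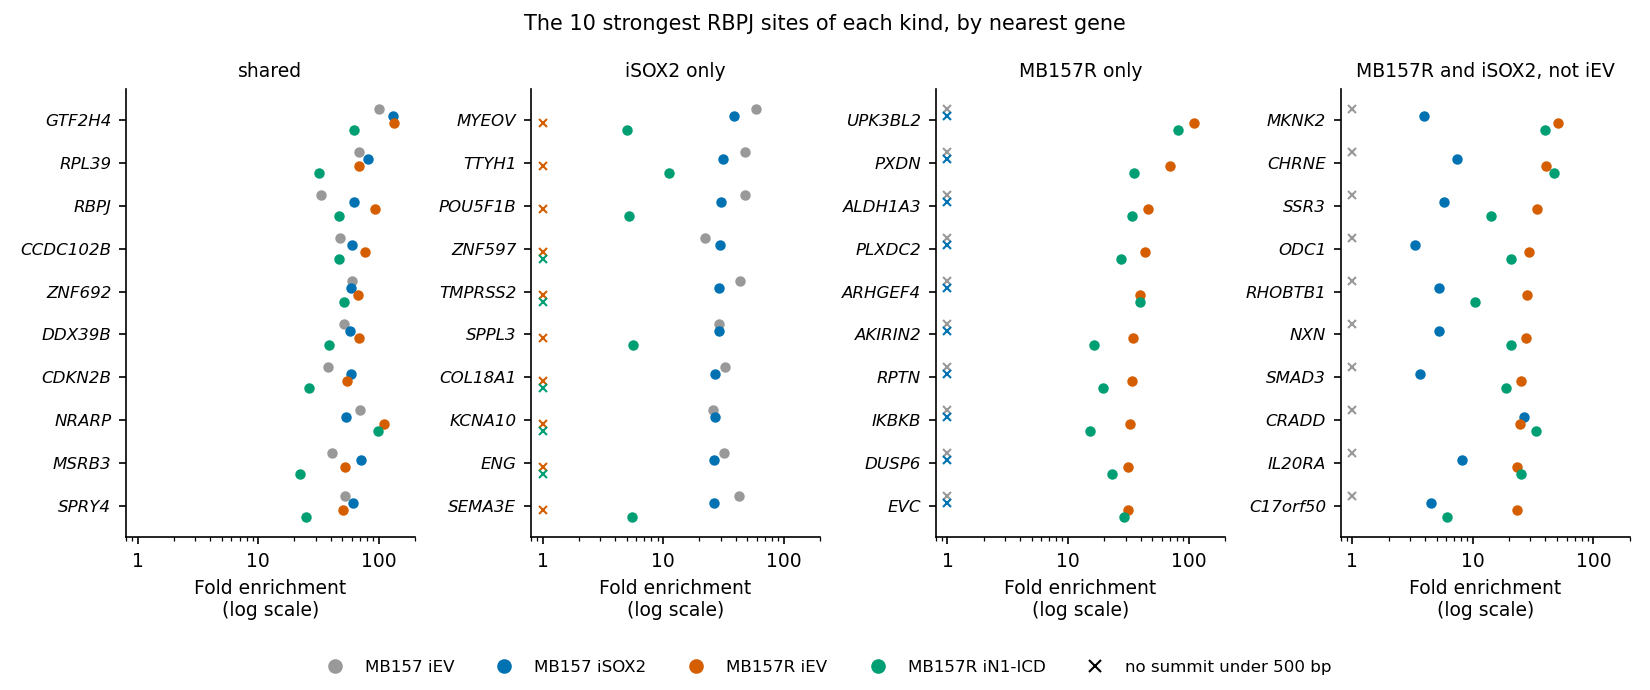
Each row is 1 RBPJ site named by its nearest gene (y axis), and points give its fold enrichment (x axis, log scale) in the 4 RBPJ lists. Crosses at the left edge mark lists with no summit under 500 bp. The 10 strongest iSOX2-only sites were all called in MB157 iEV, and the 10 strongest MB157R-only sites were all called in MB157R iN1-ICD and in neither parental list.

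The 5858 resistant sites that iSOX2 held and iEV did not had a median fold of 5.55 in MB157R and 4.24 in iSOX2, where the median over all sites was 4.44. The 10071 sites held by both parental lists had medians of 7.09 and 5.60. The 10 strongest of the 5858 were chosen by their MB157R fold, which was 23.3 to 50.4. Their iSOX2 folds ran from 3.29 to 26.8, and all 10 were called in iN1-ICD. In the intron of MKNK2, a kinase that phosphorylates the translation factor eIF4E, the fold was 50.4 in MB157R and 3.95 in iSOX2. At SMAD3, a transducer of TGF-β signals, an intron 1 site had 25.2 and 3.62. At ODC1, which makes polyamines, the values were 29.2 and 3.29. An intron 2 site of CRADD, a death domain adaptor, had 24.4 in MB157R and 26.8 in iSOX2, with a SOX2 fold of 19.3 and an HA-SOX2 fold of 77.3. An intron 1 site of IL20RA, a cytokine receptor, had 23.4 and 8.12, with SOX2 at 13.0 and HA-SOX2 at 19.8. Of the 10 sites, 5 had HA-SOX2 and 7 had SOX2 nearby.

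Counted by gene rather than by site, the conditions were more alike. Of 19618 protein-coding genes, 51.4% had a promoter summit in both lists, 6.42% in iSOX2 only and 12.4% in MB157R only, so that 80.6% of the genes bound at the promoter in MB157R were also bound in iSOX2. Within 5 kb of a start 58.3% of all genes had a summit in both lists, 6.39% in iSOX2 only and 12.1% in MB157R only. These percentages are the background for the gene groups below, whose counts are given without a test.

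Of 20 canonical Notch target genes, 12 had a promoter summit in both lists (60%, beside 51.4% of all genes), HES7 and HEYL in iSOX2 only and NRARP in MB157R only. In iEV 15 of the 20 had a promoter summit. The HEYL promoter site was among the iEV sites too, with a fold of 4.72 beside 5.18 in iSOX2. Within 5 kb of a start site 16 were shared, HEYL was in iSOX2 only and none in MB157R only. The repressor genes HES1, HES4 and HEY1 had strong sites in every RBPJ list. The upstream HES1 site, at −1.24 kb in MB157R, had a fold of 39.4 in MB157R, 38.4 in iSOX2, 49.9 in iEV and 23.9 in iN1-ICD. HES4 had 54.8 in MB157R, 36.3 in iSOX2, 41.5 in iEV and 46.4 in iN1-ICD. HEY1 had 22.0 in MB157R, 41.9 in iSOX2, 38.5 in iEV and 13.8 in iN1-ICD. HES4 was thus highest in MB157R and HEY1 in iSOX2, with no replicate spread to set these against.

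At NRARP the MB157R-only promoter call came from a summit with a fold of 9.41 at 0.982 kb from the start, just inside the window. Neither iSOX2 nor iEV had a summit under 500 bp from it, and iN1-ICD had one of 3.57. At the site 2.95 kb upstream the folds were alike, with 46.8 in MB157R, 42.2 in iSOX2, 46.0 in iEV and 52.5 in iN1-ICD. A SOX2 summit of MB157R with a fold of 52.3 lay 0.046 kb from the start. DTX1, a Notch-modulating ubiquitin ligase, had no promoter summit in any RBPJ list.

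Of 32 genes for Notch receptors, ligands and their processing, 19 had promoter summits in both lists (59.4%, beside 51.4% of all genes). None was in iSOX2 only, and 6 were in MB157R only (18.8%, beside 12.4% of all genes). The 6 were JAG2, LFNG, RFNG, NUMBL, APH1B and DTX2, and within 5 kb of a start the MB157R-only genes were 3, DLL3, NUMBL and APH1B. The receptor genes NOTCH1, NOTCH2 and NOTCH3 were bound at the promoter in both, with folds of 10.4 in MB157R and 7.17 in iSOX2 for NOTCH1, 9.92 and 5.40 for NOTCH2, and 13.8 and 18.3 for NOTCH3. In iEV the folds were 4.99 at the NOTCH2 and 7.76 at the NOTCH3 site, and no summit lay under 500 bp from the NOTCH1 site. The nearest iEV summit to the NOTCH1 start, with a fold of 8.83, lay 1.32 kb from it, in a peak overlapping that of MB157R. Within 50 kb of NOTCH1 there were 24 sites in MB157R, 10 in iSOX2, 8 in iEV and 28 in iN1-ICD. The paper infers from RNA reads that MB157 cells carry a deletion within NOTCH1 that removes the extracellular domain. In iN1-ICD cells the vector also holds NOTCH1 coding sequence, so reads from the gene and the vector cannot be told apart there. The part of either in these counts was not tested. The ligand gene DLL1 had a promoter fold of 11.3 in MB157R and 7.98 in iSOX2. At JAG1, another ligand gene, the promoter summits differed, with 6.02 in MB157R and 7.77 in iSOX2 at sites over 500 bp apart. The peaks around these JAG1 summits overlapped over most of their length. Among 26 genes for RBPJ coactivators and corepressors, 19 were shared at the promoter (73.1%). MAML3 was in iSOX2 only, and CREBBP, CTBP1, CTBP2 and SNW1 in MB157R only (15.4%, beside 12.4% of all genes). Within 5 kb of a start 23 were shared and none was in iSOX2 only. The MB157R-only genes were then FHL1, CTBP1 and SNW1.

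Genes of the downstream programme are given next, each from 1 pooled list per condition. At MYC, a growth regulator and known Notch target, the promoter fold was 11.8 in MB157R and 13.3 in iSOX2, beside 12.0 in iEV. Sites within 50 kb of MYC numbered 5 in MB157R, 6 in iSOX2 and 14 in iEV. At CCND1, which encodes cyclin D1, the promoter fold was 8.56 in MB157R and 5.84 in iSOX2, with 14 and 8 sites within 50 kb. At SOX2 itself a site upstream of the gene had a fold of 5.32 in MB157R, 3.21 in iSOX2 and 5.01 in iEV. A further summit of 5.37 in iSOX2 lay 0.758 kb into the gene, a position that the MB157R peak also covered. In iSOX2 cells the vector also holds the SOX2 coding sequence, so reads from the gene and the vector cannot be told apart at this further summit.

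Among 23 genes of epithelial-mesenchymal transition (EMT), 13 were shared at the promoter (56.5%, beside 51.4% of all genes). TWIST2, FOXC2 and TGFB1 were in iSOX2 only, and MMP2, MMP9, COL1A2, TGFBI and AXL in MB157R only (21.7%, beside 12.4% of all genes). None of the latter 5 had a promoter summit in iEV, nor had 1968 of the 2426 MB157R-only genes overall. Within 5 kb of a start 15 EMT genes were shared, TWIST2 was in iSOX2 only, and THY1 joined the MB157R-only genes. At VIM, which encodes the mesenchymal filament vimentin, the summit lay 0.851 kb into the gene in MB157R, with a fold of 31.2. In iSOX2 it lay 0.236 kb into the gene, with 12.3, so these count as different sites. The peaks around these VIM summits overlapped over most of their length. At CDH2, or N-cadherin, a site 1.92 kb into the gene had a fold of 10.6 in MB157R and 9.80 in iSOX2. A CDH2 site at 0.610 kb had 15.6 in MB157R with no iSOX2 summit under 500 bp away, though it lay inside an iSOX2 peak. Of 21 epithelial genes 16 were shared at the promoter (76.2%), CDH1 and CLDN3 were in iSOX2 only and OVOL2 in MB157R only. The CLDN3 promoter site was also called in iEV, with a fold of 7.37 beside 5.61 in iSOX2, and the CDH1 one was not. Within 5 kb of a start all 21 were in both lists. At CDH1, or E-cadherin, the MB157R summit lay 1.03 kb from the nearest start and so just outside the promoter window.

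ITGA6, the integrin subunit known as CD49f, had no iEV summit within 50 kb. It had a promoter fold of 6.59 in iSOX2 and 7.45 in MB157R, with 2 and 12 sites within 50 kb. Among 19 integrins 8 were shared at the promoter (42.1%, beside 51.4% of all genes). ITGA4, ITGA7 and ITGA9 were in iSOX2 only, and ITGA2, ITGA5, ITGB4 and ITGB6 in MB157R only. Within 5 kb of a start 10 integrins were shared, and ITGA7 and ITGB4 were no longer single-list genes. Of 17 basal mammary genes 9 were shared (52.9%), with KRT17, ITGB4 and MYLK in MB157R only and none in iSOX2 only. Within 5 kb 11 basal genes were shared, KRT6A was in iSOX2 only and 5 were in MB157R only. At the basal keratin gene KRT5 a summit 2.17 kb from the start had a fold of 32.4 in iEV and 15.2 in iSOX2. In MB157R the summit lay at 1.48 kb, with a fold of 9.24. The MB157R peak overlapped the iSOX2 peak over most of its length, so the position of the summit differed rather than the bound region. Of 17 AP-1 family genes 14 were shared at the promoter (82.4%), with BATF in iSOX2 only and MAFK in MB157R only. Within 5 kb 15 were shared and none was in MB157R only. Of 19 SOX genes 7 were shared at the promoter (36.8%), SOX6, SOX11, SOX18 and SOX30 were in iSOX2 only and SOX15 in MB157R only. Within 5 kb 9 SOX genes were shared, 7 were in iSOX2 only and none was in MB157R only. Marker genes of other tissues had few promoter summits, with 1 or fewer of 15 liver, 2 of 15 blood and 3 or fewer of 14 skeletal muscle genes in each list.

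The list lengths moved with the background of the chromosomes. The background was recovered from the fold and p-value of each peak. Over 23 chromosomes the ratio of MB157R to iSOX2 sites and the ratio of their backgrounds had a Spearman rho of 0.786, as a description over chromosomes that share the same libraries. Chromosome 15 held 1738 MB157R and 683 iSOX2 sites (ratio 2.54) at a background log2 ratio of 0.48, and its shares were 23.5% of MB157R and 60.0% of iSOX2 sites. Chromosome 8, with HEY1, MYC and POU5F1B, had the largest difference, a background log2 ratio of −0.744, and held 1960 MB157R and 1659 iSOX2 sites. On chromosome 9, with NOTCH1, the background log2 ratio was 0.318. On the 9 chromosomes with a background within 0.2 log2 of the genome the shares were 35.1% and 47.5%, and the AP-1 odds ratio of MB157R-only against shared sites was 3.49, beside 3.60 over all chromosomes. The part of the background in the site numbers was not tested.

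**Figure D5:**
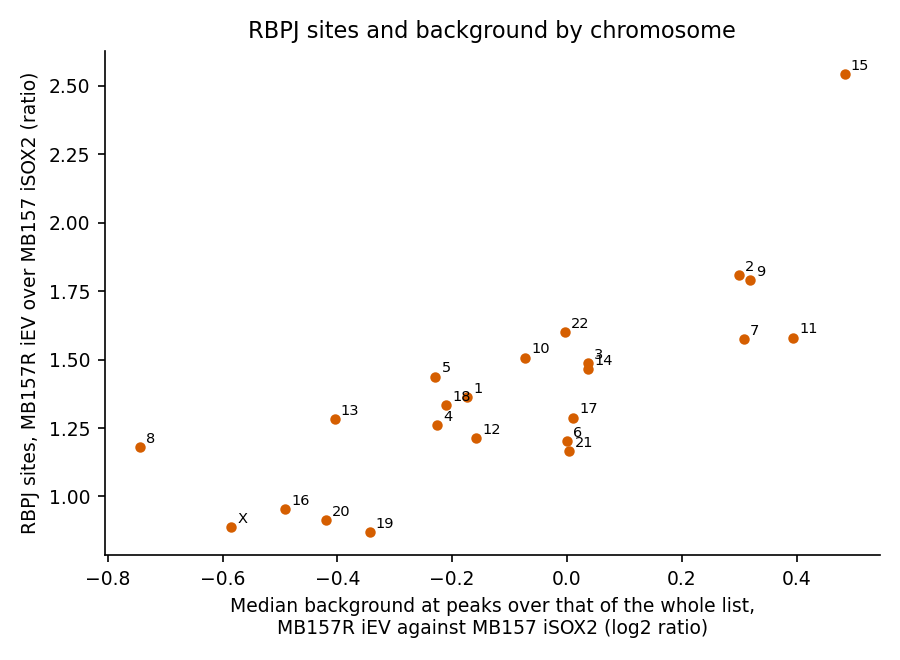
Each point is 1 of 23 chromosomes. The x axis gives the log2 ratio of the median background at peaks of MB157R iEV over MB157 iSOX2, each relative to its whole list, and the y axis gives the ratio of RBPJ site numbers. Chromosome 15 stands at 2.54 times as many MB157R as iSOX2 sites.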

How the data were processed

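RBPJ, SOX2 and HA ChIP-seq peak lists were used as deposited. Per the paper's methods, the authors trimmed paired-end reads, aligned them to hg38 with BWA and called narrow peaks with MACS2 at an FDR of 0.05 on pooled replicates against input. The deposited columns hold positions, an integer score, fold enrichment as a ratio, and p- and q-values as −log10. The methods give ChIP-seq reads per sample as a range, and the peak files hold no total per library. Relative depth was read from the background of each RBPJ list, 1.60 to 2.04 fragments, which was recovered with summit fragments from the deposited fold and −log10 p of every peak.

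Summits on chromosomes 1 to 22 and X were compared at 500 bp, annotated with GENCODE 44 on hg38, the build of the files, and searched for 16 motifs on both strands of 201 bases (2 of them reversed controls). Shares have 95% Clopper-Pearson intervals, and classes were compared by two-sided Fisher's exact tests with Benjamini-Hochberg adjustment over 57 tests, p-values being floored at 1e-300, and by Mantel-Haenszel odds ratios over 5 bins of fold (Python 3.11.15, scipy 1.17.1, statsmodels 0.14.6, pysam 0.24.0). The routines were tested on simulated data.

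Named genes were 24 listed genes and, per class, the 10 sites of highest fold with at most 1 per nearest gene within 50 kb and, for single-list classes, no peak of the other list overlapping. GAS5 and SRY were not matched among the listed genes. The members and lists were chosen with earlier results of these data known. Alternatives were other distances, peak overlap, a −log10 q of at least 5, equal length or depth, distal sites, bins of fold and, for motifs, 50 bp. Restriction to chromosomes of like background was added after seeing the data.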

Additional observations from a re-analysis of the deposited data

How the results depend on the processing

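No paired analysis was possible because the libraries of each group were pooled before peaks were called, and leaving out a replicate was not possible for the same reason. The share of MB157R sites called in iSOX2, of iSOX2 sites called in MB157R, of MB157R sites called in iEV and the iSOX2 minus iEV difference were, in this order, 18.8%, 25.4%, 15.1% and 3.77 points under 100 bp, 28.0%, 37.8%, 21.8% and 6.24 under 250 bp, 39.6%, 53.5%, 30.4% and 9.22 under 1000 bp, 37.7%, 52.4%, 28.4% and 9.29 by peak overlap, 29.9%, 51.4%, 22.5% and 7.35 at a −log10 q of at least 5, 40.9%, 41.0%, 37.2% and 3.69 at equal length, and 21.2%, 31.7%, 16.6% and 4.67 at distal sites. At equal depth the last 3 were 47.0%, 26.7% and 7.28, and on chromosomes of like background the first 3 were 35.1%, 47.5% and 27.0%. Fold at shared sites had a rho of 0.533 under 100 bp.

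Among sites in exactly one parental list, the HA-SOX2 odds ratio was 1.00 under 100 bp and 1.06 at the q limit. The SOX2 odds ratio was 0.899 under 100 bp, 0.812 at the q limit, 0.918 at equal length, 0.990 on chromosomes of like background and 1.18 at distal sites. New against lost sites had 1.04 under 100 bp. HA-SOX2 at iSOX2-only against shared sites had 1.48 at the q limit, 0.992 at equal length and 1.04 over bins of fold. The RBPJ motif at MB157R-only against shared sites had 0.973 over bins of fold. At iSOX2-only against shared sites it had 1.30 over bins of fold, 0.915 within 50 bp, 0.858 at distal sites and 1.01 on chromosomes of like background. The cause of these changes was not tested.

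Weaker motif contrasts changed direction. Against shared distal sites, MB157R-only sites had odds ratios of 0.973 for SNAI and 0.982 for reversed RBPJ, and iSOX2-only sites 0.982 for TEAD, 0.936 for RUNX, 0.764 for CTCF, 0.936 for SNAI and 0.824 for OCT. CTCF at iSOX2-only sites had 0.992 over bins of fold and 0.982 within 50 bp. MB157R-only against iSOX2-only sites had 1.02 for SP/KLF within 50 bp, 1.06 on chromosomes of like background, and 0.511 for NRF1 at distal sites. The AP-1 and promoter contrasts kept their direction and their side of the threshold under each alternative run. Depth per list was read only from its background, so weak sites in one list may be missed in the other.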

Other observations

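Some genes collected many sites of one class. Counted after their values were seen, the genes with the most single-list sites as nearest gene were IQSEC1, an ARF exchange factor, with 28 MB157R-only sites, MICAL2, an actin oxidase, with 23, and KCNJ15, a potassium channel, with 22. SOX2 lay near 6 of the IQSEC1, 12 of the MICAL2 and 16 of the KCNJ15 sites, beside 50.0% of all MB157R-only sites. Sites called in iEV numbered 1 at IQSEC1 and none at MICAL2 and KCNJ15, beside 6.96% of the class. The iSOX2 list had 14 sites at IQSEC1, 3 at MICAL2 and 1 at KCNJ15, shared ones included. SMAD3 had 22 MB157R-only and 7 shared sites. On the iSOX2 side, SEPTIN9 had 22 single-list sites, 9 of them called in iEV, beside 18 shared sites. MB157R had 35 sites at SEPTIN9, shared ones included, so this gene was dense in both lists. APP, the amyloid precursor gene, had 14 iSOX2-only sites, of which 9 had HA-SOX2 and 1 was called in iEV. FRMD4A was dense in both classes, with 19 MB157R-only and 17 iSOX2-only sites and 4 shared, so the lists held different sites along the same gene.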
